A study of Mus musculus with 69 samples.

Results

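The genes of the myeloid colony-stimulating factor receptors Csf1r, Csf2rb, Csf2rb2 and Csf3r were examined in 18 lists of histone-mark peaks from mouse blood stem and progenitor cells. They are 4 of 21883 protein-coding genes, were chosen by name, and were described by every peak within 50 kb of their annotated gene bodies on the build mm10. Csf2rb and Csf2rb2 lie 20078 bases apart and were treated as 1 locus, so that each shared peak was counted once. The resulting 3 loci held 964 of the 1506511 peaks summed over all lists.

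These receptors carry the signals that make haematopoietic progenitors survive, divide and become myeloid cells. Csf1r is a receptor tyrosine kinase for CSF1 and IL-34 and is the defining receptor of monocytes and macrophages. Csf2rb is the beta chain common to the receptors of IL-3, IL-5 and GM-CSF, Csf2rb2 is a second beta chain of the mouse that serves IL-3, and Csf3r is the receptor for G-CSF, which drives neutrophil production. The beta chains and Csf3r signal through JAK kinases and STAT factors. H3K4me1 marks enhancers, H3K27ac marks active enhancers and promoters, and Kmt2c encodes MLL3, a methyltransferase that deposits H3K4me1.

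Sorted blood stem cells (HSCs) and progenitors (HPCs) were profiled by ChIPmentation, in which antibody-bound chromatin is tagged by the transposase Tn5. Untreated mice aged 8 weeks were wild type, Kmt2c f/+; Vav-Cre (heterozygous) or Kmt2c f/f; Vav-Cre (knockout), and each genotype gave 1 H3K4me1 list per cell type, made from 3 libraries. HSCs came also from wild-type and knockout mice aged 16 weeks dosed 3 times at 3-week intervals with PBS or with 5-fluorouracil (5FU, 150 mg/kg), which is toxic to cycling cells. Their H3K27ac lists rested on 3 libraries each. Their H3K4me1 lists rested on 4 libraries for wild type after PBS, 6 for wild type after 5FU, 3 for knockout after PBS and 4 for knockout after 5FU. HPCs from wild-type and knockout mice aged 8 to 10 weeks were used for H3K27ac, with 4 libraries in each list, following daily PBS or IL-1 (0.5 µg, an inflammatory cytokine) for 3 days. Vav-Cre acts throughout the blood system, so the deletion was not limited to myeloid cells, and the lists cannot show whether the floxed exons were lost.

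Each group had 1 list pooled over its libraries. There was no replicate error, no test was possible, and every difference below is one between 2 lists. The H3K4me1 lists held 76274 to 134509 peaks and covered 44.2 to 116.0 Mb, and the H3K27ac lists held 37002 to 67143 peaks over 33.4 to 45.9 Mb. Read depth is unknown. At 16 weeks the wild-type 5FU list of H3K4me1 covered 116.0 Mb and the other 3 covered 44.2 to 54.0 Mb. The titles of its 6 libraries carry 2 prefixes and those of the other 3 lists share 1, so in comparisons with this list the group and the set of libraries cannot be told apart. The knockout lists of H3K27ac in HSCs covered 33.4 and 36.5 Mb, against 42.2 and 45.4 Mb in wild type. In HPCs the knockout lists covered 43.1 Mb after PBS and 36.9 Mb after IL-1, against 45.9 and 44.9 Mb in wild type. The sorted populations were checked with markers: the windows of 12 HSC markers took 0.631% to 0.723% of all H3K4me1-covered bases in the 7 HSC lists and 0.312% to 0.322% in the 3 HPC lists. For 15 granulocyte and monocyte markers these shares were 0.137% to 0.189% and 0.205% to 0.210%.

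A pair of quantities is used for every locus. The first is the number of bases that peaks covered in the window. The second, the relative log2 ratio, compares the covered bases of 2 lists after 1000 bases are added to each and after the median of all measured protein-coding genes is subtracted. The subtraction centres the genes but does not make 2 lists equal in total covered length. A locus is called past 1.5-fold when this ratio is at least 0.585 in size. The same share over all genes is given as the background of each comparison. It is not a background for values that did not overlap between groups, and no share of genes with that pattern is given.

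Of the 3 loci, Csf3r had the shortest covered length of H3K4me1 at every age and treatment. The H3K27ac inside its gene body lay mostly at the lower end. Csf3r (gene 12986) lies on chromosome 4 from 126023441 to 126044975, on the forward strand of the RefSeq promoter table. Its window also holds Mrps15, a protein of the mitochondrial ribosome, Oscp1, an organic solute carrier partner, the pseudogene Rpl28-ps3 and the lncRNA Gm32908. An H3K27ac element at 126023424 to 126027340, over the lower end of the gene body, was present in all 8 lists. Elements are peaks of all lists of a mark merged wherever they overlapped. The authors' fold enrichment of its strongest peak was 6.67 in wild-type HSCs after PBS, 8.17 after 5FU, 4.89 in knockout HSCs after PBS and 6.16 after 5FU. In HPCs it was 8.07 in wild type after PBS, 7.58 after IL-1, 6.24 in knockout after PBS and 6.22 after IL-1. In each of the 4 pairs of lists with the same cell type and treatment the knockout value was the lower, but the values are the peak caller's and were not scaled between lists.

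The promoter of Csf3r is shown because a peak of this element overlaps it in every H3K27ac list. The 250 bases before the RefSeq start lie at chr4:126024409-126024658 (GRCm38.p6, forward strand), inside the annotated gene body of Csf3r and mostly inside that of Gm32908, and capitals mark matches to the motif AGGAAG or its reverse complement CTTCCT, the core bound by ETS factors such as PU.1.
Csf3r promoter: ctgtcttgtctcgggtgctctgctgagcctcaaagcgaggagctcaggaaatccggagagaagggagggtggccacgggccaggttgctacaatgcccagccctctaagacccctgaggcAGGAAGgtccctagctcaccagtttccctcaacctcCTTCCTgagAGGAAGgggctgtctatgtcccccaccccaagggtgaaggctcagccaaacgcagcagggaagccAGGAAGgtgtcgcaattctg
Matches to AGGAAG began at -130, -85 and -20, and CTTCCT began at -94, counted backwards from the start. Of 32851 RefSeq promoters of the same length, 29.5% held this motif on either strand, so its presence is common. Both strands were searched for 6 other motifs, and none matched. The longer PU.1 core GAGGAAGT, which contains the ETS motif, was in 2.44% of promoters. The C/EBP pattern TTNNGNAA was in 36.8% of them and the RUNX motif TGTGGT in 14.0%. The STAT pattern TTCNNNGAA was in 7.02%, and the AP-1 pattern TGANTCA in 6.75%. The TATA box motif, spelled TATAAA, was in 12.4%. H3K4me1 peaks overlapped these 250 bases in 7 of 10 lists, missing in wild-type HPCs, in wild-type HSCs after PBS and in knockout HSCs after PBS. The promoter was at 60.0% G and C.

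HPCs had more H3K4me1 around Csf3r than HSCs in all 3 genotypes. The wild-type lists covered 6633 bases in HSCs and 12179 in HPCs. In heterozygous mice 8944 and 14677 bases were covered, and in knockout mice 9652 and 15370. The lowest HPC value lay above the highest HSC value of untreated mice, but how many genes share this separation is not given. The relative log2 ratio of HPC over HSC was 0.54 for wild-type, 0.69 for heterozygous and 0.76 for knockout lists, so the last 2 were past 1.5-fold. Among all genes 19%, 20% and 21.5% were past this fold in the same comparisons, in either direction, so a gene past it was common. The ratio was smaller close to the gene. With 10 kb windows it was 0.04, 0.58 and 0.41, and none was past 1.5-fold. With 5000 added bases it was 0.38, 0.52 and 0.58, again with none past it.

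Marker genes differed between the same lists. Of the 12 HSC markers 7 were lower by 1.5-fold in HPCs and 0 higher, in each genotype. Of the granulocyte and monocyte markers measured, 5 of 13 wild-type, 7 of 14 heterozygous and 6 of 14 knockout values were higher, with 0 lower. Of T, NK and B cell markers 3 of 8, 2 of 8 and 5 of 9 were higher. Their H3K4me1 took 0.0756% to 0.0856% of covered bases in HPCs and 0.0561% to 0.0713% in HSCs, with 1 and 1 to 4 of the 10 genes at 0. Of erythroid and megakaryocyte markers 1, 0 and 1 of 6 were higher, and of stroma and endothelium markers 1 of 7 in each genotype, with 1 erythroid marker in knockout and 1 stroma marker in wild-type lists lower. In these bulk samples a mark in fewer cells and less of it per cell cannot be told apart, and the part of these cells in the values at the receptor loci was not tested.

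The added length lay largely outside the gene body. Inside the Csf3r body 5126, 4895 and 5473 bases were covered in wild-type, heterozygous and knockout HSCs, and 5289, 6515 and 6116 in HPCs. Inside neighbouring genes these were 1133, 3394 and 3568 in HSCs, and 4729, 5697 and 6492 in HPCs. Of 25 H3K4me1 elements in the window, 3 were in wild-type HSCs, 6 in heterozygous and 8 in knockout HSCs, against 10, 16 and 16 in HPCs. Within the gene, an element at 126030152 to 126031714 was held by all 3 HPC lists, with 1001, 1128 and 1290 covered bases, and by no untreated HSC list. A second element with this pattern lay in Oscp1, at 126086765 to 126087570. Thus 2 of 25 elements were in all 3 untreated HPC lists and no untreated HSC list, against 2.51% of elements genome-wide. Another Oscp1 element, at 126088690 to 126091195, had 1536, 2450 and 2132 bases in wild-type, heterozygous and knockout HPCs. In untreated HSCs it had 1120 bases in heterozygous and 251 in knockout lists, and no peak in wild type. The gene-start element at 126021736 to 126028490 was in all 10 lists, with 4965 to 5756 covered bases in HPCs and 5038 to 5452 in untreated HSCs, so at the gene start both cell types had similar lengths. It was 1 of 2 Csf3r elements in all 10 lists, beside 16.0% of elements genome-wide, and the other lay in Mrps15.

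H3K27ac showed a similar arrangement, although cell type cannot be told apart from age, treatment schedule and experiment for this mark. Peaks covered 4191 to 5834 bases around Csf3r in the 4 HSC lists and 7142 to 7824 in the 4 HPC lists, without overlap. How many genes share this separation is not given. Covered bases inside the gene body did overlap, with 2354 to 3803 in HSCs and 3141 to 4066 in HPCs, whereas bases inside the neighbouring genes were 472 to 862 and 2970 to 3765. Among the latter was an Oscp1 element at 126089196 to 126091214 that all 4 HPC lists held, with 1957 bases in wild type after PBS, 1642 after IL-1, 1493 in knockout after PBS and 1155 after IL-1. No HSC list had a peak there. This was 1 of 12 H3K27ac elements at the locus in all HPC lists and no HSC list, against 1.71% genome-wide. Conversely, an element just below the gene at 126022104 to 126022827 was in all 4 HSC lists and, of HPCs, in wild type after IL-1. An element in Mrps15 at 126046123 to 126047873, in all 8 lists, had fold enrichments of 3.98 to 5.49 in HSCs and 8.04 to 9.44 in HPCs. It held the strongest peak of the window in all 4 HPC lists.

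**Figure D1:**
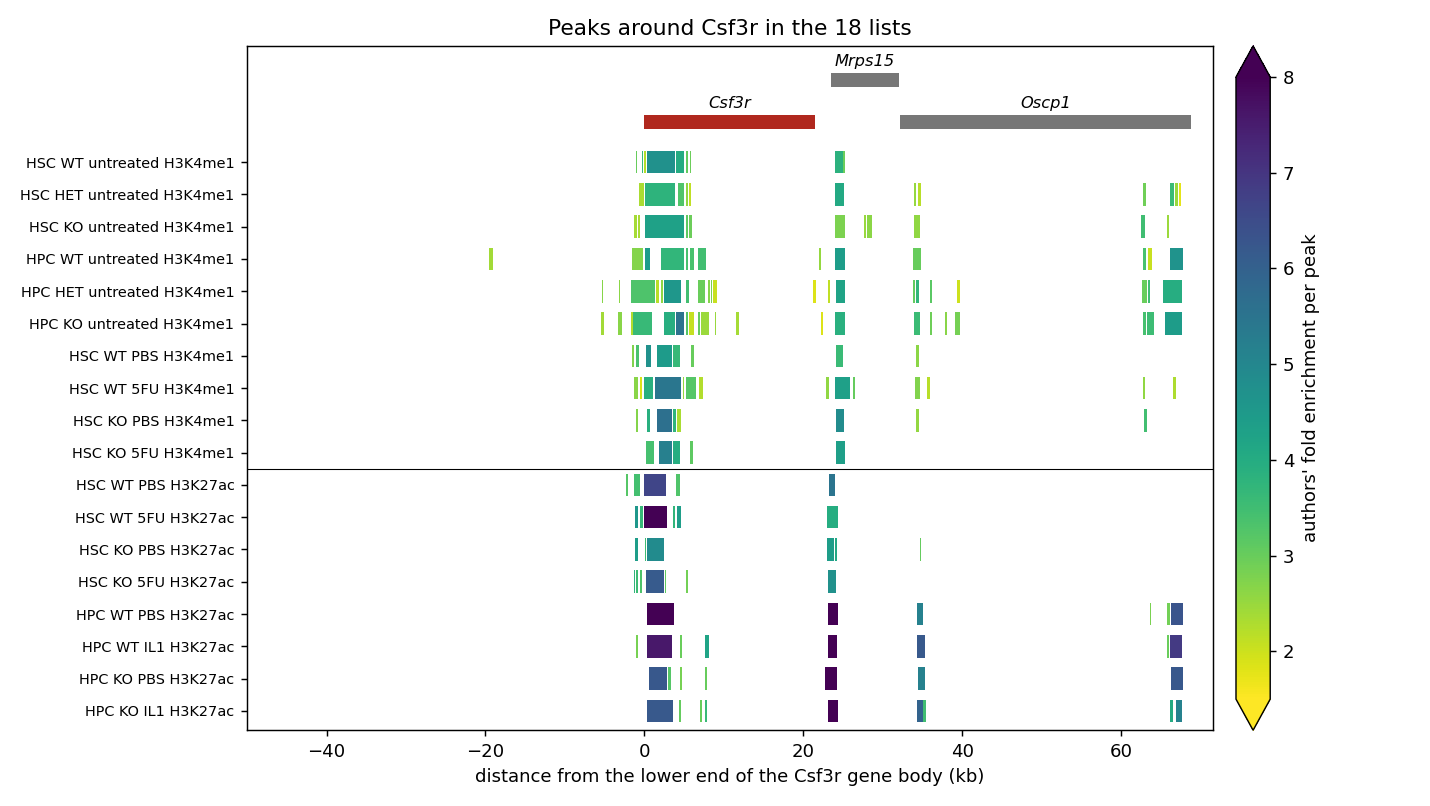
Peaks around Csf3r in each of the 18 lists (rows), by distance in kb from the lower end of the Csf3r gene body, with the 10 H3K4me1 lists above the line and the 8 H3K27ac lists below it. Colour gives the authors' fold enrichment of each peak, red and grey bars at the top are gene bodies, and the H3K27ac peaks in Oscp1 near 66 kb are in HPC lists alone.

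With all peaks and 50 kb windows, Csf3r was not past 1.5-fold in any comparison of genotypes or treatments. In untreated HSCs the relative ratio was 0.14 for heterozygous over wild type (background 3.94% of genes past 1.5-fold) and 0.09 for knockout over wild type (5.87%). In untreated HPCs these were 0.29 (3.30%) and 0.32 (4.52%), both above the upper quartile of all genes, which was 0.12 and 0.14. H3K4me1 at 16 weeks covered 5745 bases in wild-type HSCs after PBS, 11283 after 5FU, 5106 in knockout HSCs after PBS and 5102 after 5FU. The relative ratio of 5FU over PBS was -0.15 in wild type, or -0.70 and past 1.5-fold with peaks of a -log10 q of at least 2, and -0.01 in knockout. H3K27ac around Csf3r in HSCs was 4851 bases in wild type after PBS, 5834 in wild type after 5FU, 4191 in knockout after PBS and 4337 in knockout after 5FU. In HPCs the IL-1 lists were close to the PBS lists, with 7455 and 7824 bases in wild type and 7142 and 7444 in knockout after PBS and IL-1 respectively. The relative ratios of IL-1 over PBS were 0.08 and 0.22, while 3.26% and 3.15% of all genes passed 1.5-fold.

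Of the 3 loci, the beta-chain locus alone was past 1.5-fold in a comparison of genotypes, knockout against wild-type HSCs after 5FU (H3K27ac). Csf2rb2 (gene 12984) lies on chromosome 15 from 78282507 to 78305721, on the reverse strand, and Csf2rb (gene 12983) from 78325800 to 78351001. Their joint window of 168.5 kb also holds Ncf4, a subunit of the phagocyte NADPH oxidase, Tex33, a gene named for expression in the testis, and part of Tst, a thiosulfate sulfurtransferase. The microRNA genes Mir7676-1 and Mir7676-2 lie inside Csf2rb2 and Csf2rb.

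H3K27ac around Csf2rb and Csf2rb2 was lowest in the HSCs of knockout mice. After PBS, 9957 bases were covered in wild type and 6441 in knockout HSCs. After 5FU, wild-type HSCs had 14698 and knockout HSCs 6022. Both knockout values lay below both wild-type values, and the wild-type 5FU list was the highest of the 4. The same held for the whole lengths of the 4 lists. The relative ratio of knockout over wild type was -0.40 after PBS, not past 1.5-fold, and -1.0 after 5FU, past it. Of all genes, 5.47% and 5.73% were past 1.5-fold in these comparisons, most of them lower in knockout, with 4.70% and 5.07% lower. The ratio after 5FU was -1.72 with 10 kb windows and -0.95 with equal numbers of peaks. With lists cut to equal covered bases it was -0.34 and no longer past 1.5-fold. That setting kept 34184 of the 67143 wild-type peaks, down to a -log10 p of 4.70, while the knockout list kept peaks down to 2.02.

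Per gene, the windows of Csf2rb after 5FU held 7766 bases in wild-type and 1430 in knockout HSCs (-1.69), and those of Csf2rb2 13127 and 5626 (-0.93), and these windows overlap. Inside the gene bodies, Csf2rb had 1834 covered bases in wild type after PBS, 1503 after 5FU, 1048 in knockout after PBS and 654 after 5FU. Csf2rb2 had 253, 1872, 123 and 0 in the same order, so it was covered most in wild type after 5FU. In these 2 genes both knockout values lay below both wild-type values, as did the whole lengths of the lists. The share of gene bodies with this pattern is not given. After 5FU, neighbouring genes in the window had 7657 bases in the wild-type list and 4440 in the knockout list, and stretches between genes 3666 and 928. The beta-chain gene bodies together had 3375 and 654. Most of the difference after 5FU therefore lay outside the beta-chain gene bodies, which span 23215 and 25202 bases of the 168.5 kb window. Relative to the wild-type length, however, the knockout length was shortest in these bodies. It was less short in the stretches between genes, and least short in the neighbouring genes.

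The wild-type 5FU list also held the most H3K27ac elements at this locus. Among H3K27ac lists the 5FU lists had the most peaks, 67143 in wild type and 66527 in knockout. Of 41 elements, 26 were in the wild-type 5FU list, 17 in wild type after PBS, 10 in knockout after PBS and 13 in knockout after 5FU. The wild-type 5FU list alone held 9 of them, against 12% of elements genome-wide, with widths of 117 to 491 bases and fold enrichments of 2.40 to 3.81. The strongest of the 9, at 78280417 to 78280707, lay 1800 bases below Csf2rb2. In all, 22 of the 41 were in HSC lists only, beside 48.4% of elements genome-wide. When peaks had to reach a -log10 q of 2, the wild-type 5FU list kept 14 elements and the knockout 5FU list 3, and the relative ratio was -1.04. Genome-wide, 65.2% of peaks in the wild-type 5FU list and 39.6% in the knockout 5FU list reached this limit.

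Treatment with 5FU went with opposite directions in the 2 genotypes at this locus, neither past 1.5-fold. The relative H3K27ac ratio of 5FU over PBS was 0.46 in wild type, where 2.05% of genes were past 1.5-fold, and -0.13 in knockout, where 2.36% were. The difference between these 2 ratios was not tested. With 10 kb windows they were 0.60 and -0.70, both past 1.5-fold. By gene, the windows of Csf2rb had 5192 bases after PBS and 7766 after 5FU in wild-type HSCs (0.44), and 3236 and 1430 in knockout HSCs (-0.85, past 1.5-fold). Those of Csf2rb2 had 8251 and 13127 (0.55), and 5415 and 5626 (-0.00). For H3K4me1 the relative ratios of 5FU over PBS were -0.27 in wild type and 0.04 in knockout. H3K4me1-covered bases were 18803 in wild type after PBS, 32286 in wild type after 5FU, 12725 in knockout after PBS and 13172 in knockout after 5FU. Over the same lists the log2 ratio of the median gene was 1.02 for 5FU over PBS in wild type and -1.20 for knockout over wild type after 5FU. After subtraction, knockout over wild type was -0.35 after PBS (9.33% of genes past 1.5-fold) and -0.03 after 5FU (14.2%). Within the Csf2rb gene body, H3K4me1 covered 3818 bases in wild type after PBS, 6126 after 5FU, 767 in knockout after PBS and 1581 after 5FU. With 10 kb windows the ratio of knockout over wild type was -0.60 after PBS and -0.59 after 5FU, both past 1.5-fold.

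A single H3K27ac element stayed with Csf2rb in all lists. It lay at 78325357 to 78326845, over the lower end of the gene, and its fold enrichment was 5.01 in wild-type HSCs after PBS, 4.97 after 5FU, 4.74 in knockout HSCs after PBS and 3.76 after 5FU. In HPCs it was 5.30 in wild type after PBS, 6.50 after IL-1, 5.01 in knockout after PBS and 5.05 after IL-1. Its covered length was 470 bases in knockout HSCs after 5FU and 919 to 1405 in the other 7 lists. It was 1 of 4 elements of the locus in all 8 lists, beside 18.6% of elements genome-wide, and the others lay in Ncf4, Tex33 and Tst. Further inside Csf2rb, an element at 78332219 to 78333056 was in all 4 HPC lists, with fold enrichments of 3.51 to 4.51, and in no HSC list.

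**Figure D2:**
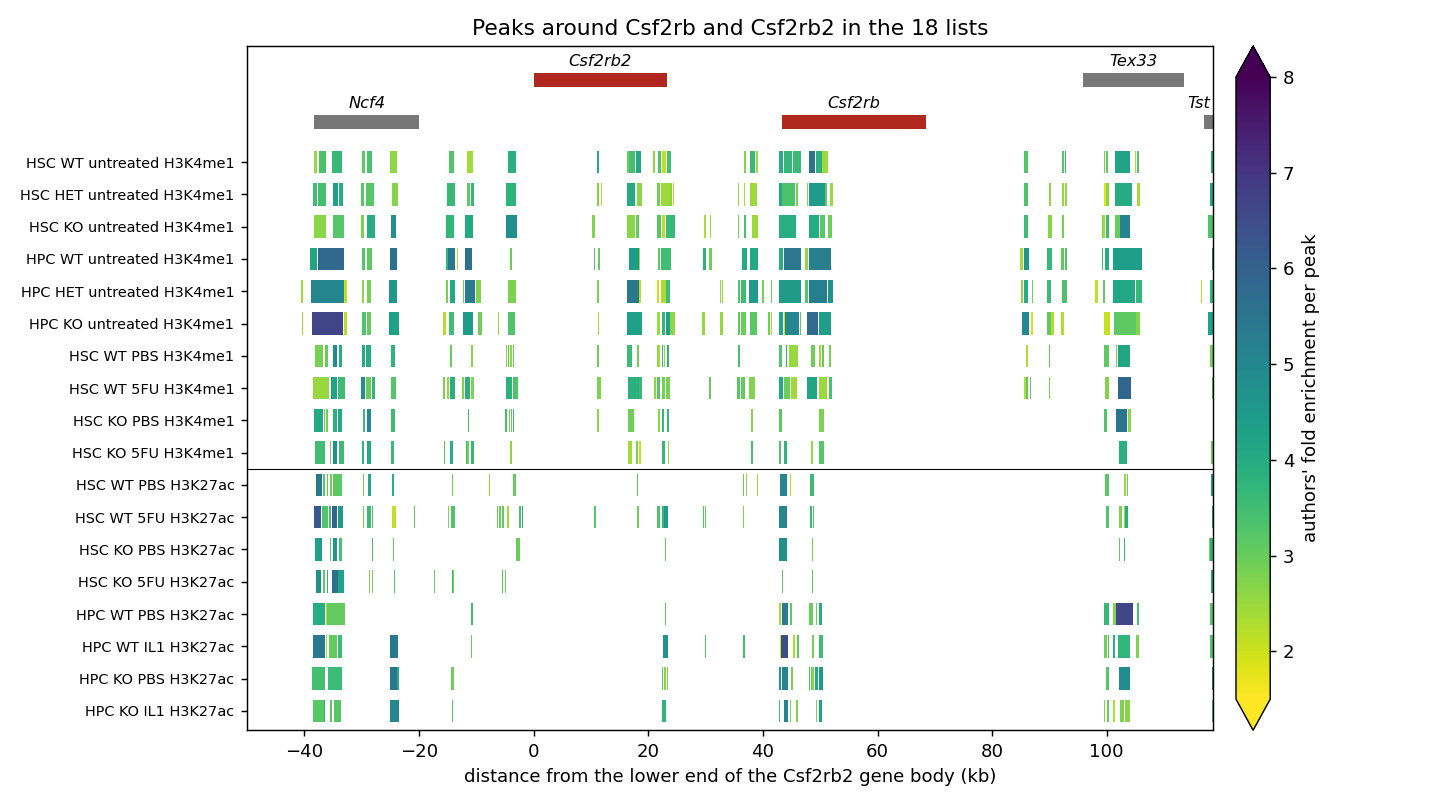
Peaks around Csf2rb2 and Csf2rb in each of the 18 lists (rows), by distance in kb from the lower end of the Csf2rb2 gene body, H3K4me1 above the line and H3K27ac below it, coloured by the authors' fold enrichment. The wild-type 5FU list of H3K27ac has 34 peaks in the window and the knockout 5FU list 22.

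The promoter of Csf2rb2 is shown because its H3K27ac differed between lists. It lies at chr15:78305722-78305971 (GRCm38.p6, reverse strand), is printed 5′ to 3′ towards the gene, and has CTTCCT and the STAT pattern TTCNNNGAA in capitals.
Csf2rb2 promoter: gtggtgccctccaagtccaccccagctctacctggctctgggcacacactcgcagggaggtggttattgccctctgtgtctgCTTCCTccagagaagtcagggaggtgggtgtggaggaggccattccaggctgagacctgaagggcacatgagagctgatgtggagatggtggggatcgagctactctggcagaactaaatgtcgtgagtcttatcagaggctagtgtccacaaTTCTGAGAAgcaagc
The CTTCCT match began at -168 and the STAT match at -15, and no other motif of those searched was found. H3K4me1 peaks overlapped the 250 bases in all 10 lists. H3K27ac peaks overlapped them in 3 of 8 lists, namely wild-type HSCs after 5FU, wild-type HPCs after IL-1 and knockout HPCs after PBS. The element at 78304856 to 78305950 that reaches into it was in 6 lists, with 928 bases in wild-type HSCs after 5FU, 123 in knockout HSCs after PBS, and 234, 819, 858 and 745 bases in HPCs of wild type after PBS and IL-1 and of knockout after PBS and IL-1. It was in neither wild-type HSCs after PBS nor knockout HSCs after 5FU.

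Between cell types, the beta-chain locus had more H3K4me1 in HPCs, with 36848, 40063 and 41168 bases in wild-type, heterozygous and knockout lists against 27258, 31860 and 31464 in HSCs. The 3 HPC values lay above the 3 HSC values, without a share of all genes for this pattern. Relative to the median gene the ratios were 0.17, 0.35 and 0.52, none past 1.5-fold. All 3 HPC lists held their strongest peaks of the window in Ncf4. By -log10 p these ranked 919 of 111140 peaks in wild type and 3308 of 118888 in heterozygous lists. In knockout the peak, at 78243870 to 78249154, ranked 26 of 118436. Of 40 H3K4me1 elements at the locus 12 were in all 10 lists, beside 16.0% genome-wide. IL-1 went with 14347 and 14379 bases of H3K27ac in wild-type HPCs after PBS and IL-1, and with 13551 and 10871 in knockout HPCs. The relative ratio of knockout over wild type was -0.13 after PBS (background 4.73%) and -0.28 after IL-1 (4.10%). The ratio after IL-1 was 0.48 with lists of equal covered bases, which turned its sign.

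Csf1r was covered by H3K4me1 in HSCs nearly as long as in HPCs, but by less H3K27ac in HSCs. Csf1r (gene 12978) lies on chromosome 18 from 61105572 to 61131139. Its window also holds Pdgfrb, a receptor for platelet-derived growth factor, Hmgxb3, an HMG-box protein gene whose body lies 138 bases beyond Csf1r, the predicted gene LOC108168367, the microRNA gene Mir6983, the snRNA gene Gm26403 and the lncRNA Gm52352. Pdgfrb is expressed by stromal cells of the marrow rather than by blood cells. H3K4me1 peaks covered 20853, 21368 and 21032 bases in wild-type, heterozygous and knockout HSCs, and 24576, 23643 and 27156 in HPCs. The HPC values were the higher, but relative to the median gene the ratios were -0.03, 0.17 and 0.50, none past 1.5-fold. With 10 kb windows the knockout ratio was 0.81 and past it.

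Some H3K4me1 elements below and beyond the gene were mostly in 1 cell type. An H3K4me1 element over the lower end of Csf1r, at 61104708 to 61105780, had 929, 955 and 904 bases in the 3 HPC lists and 326 in heterozygous HSCs, and no peak in the other HSC lists. Another, at 61097328 to 61099734, had 2334, 1864 and 2173 bases in wild-type, heterozygous and knockout HPCs, 291 in wild-type and 493 in heterozygous HSCs, and none elsewhere. By contrast, a Hmgxb3 element at 61169314 to 61172122 was in all 7 HSC lists, with 731 to 2514 bases, and of HPCs in the heterozygous list alone, with 184. Inside Csf1r, elements at 61105847 to 61111347 and 61118187 to 61122580 were in all 10 lists, with fold enrichments of 3.83 to 5.66 and of 3.86 to 5.61. They were 2 of 6 elements of the locus in all lists, out of 25, beside 16.0% genome-wide.

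H3K27ac covered 3723 bases around Csf1r in wild-type HSCs after PBS, 5779 after 5FU, 2986 in knockout HSCs after PBS and 3983 after 5FU. In HPCs it covered 11560 bases in wild type after PBS, 9886 after IL-1, 8004 in knockout after PBS and 6558 after IL-1. All HPC values exceeded all HSC values, which came from another experiment. In each of the 4 pairs with the same cell type and treatment the knockout value was the lower. Each knockout list also covered fewer bases genome-wide than its wild-type pair. No share of all genes is given for either pattern. Inside the gene body the HSC lists had 1071 to 2605 bases and the HPC lists 2438 to 5092, which overlapped. The relative ratio of knockout over wild type was -0.54 after PBS and -0.43 after IL-1 in HPCs, and -0.09 and -0.29 after PBS and 5FU in HSCs, none past 1.5-fold. In HPCs both lay below the lower quartile of all genes, which was -0.16 and -0.17. The value after IL-1 differed by setting: it was -0.60 with 10 kb windows and 0.68 with lists of equal covered bases, so its sign turned. The latter setting kept 21546 of the 40494 wild-type peaks, down to a -log10 p of 5.94, and left the knockout list with peaks down to 2.02.

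The main H3K27ac element inside Csf1r, at 61107527 to 61110755, was in all 8 lists. Macrophages are known to use an enhancer inside an early intron of this gene, called FIRE, whose position was not among the data used here. The element had 933 covered bases in wild-type HSCs after PBS, 1210 after 5FU, 313 in knockout HSCs after PBS and 714 after 5FU. In HPCs it had 3210 in wild type after PBS, 2700 after IL-1, 2313 in knockout after PBS and 1502 after IL-1. Knockout was again lower in each of the 4 pairs, as were the whole lengths of the knockout lists. The fold enrichment of the element's strongest peak in HPCs was 4.45 and 4.87 in wild type and 5.34 and 5.35 in knockout. The covered length in HPCs was thus shorter in knockout while the strongest peak was not lower, though fold enrichments were not scaled between lists. After IL-1 the element's other peaks had 2.14 to 3.77 in knockout and 2.01 and 4.50 in wild type. An element below the gene at 61089884 to 61090890 was in all 4 HPC lists and, of HSCs, in wild type after 5FU with 199 bases. The strongest peaks of the window lay in none of these but over the upper end of Hmgxb3, at 61175600 to 61178044, with fold enrichments of 6.93 to 9.55 in HSCs and 11.7 to 18 in HPCs.

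**Figure D3:**
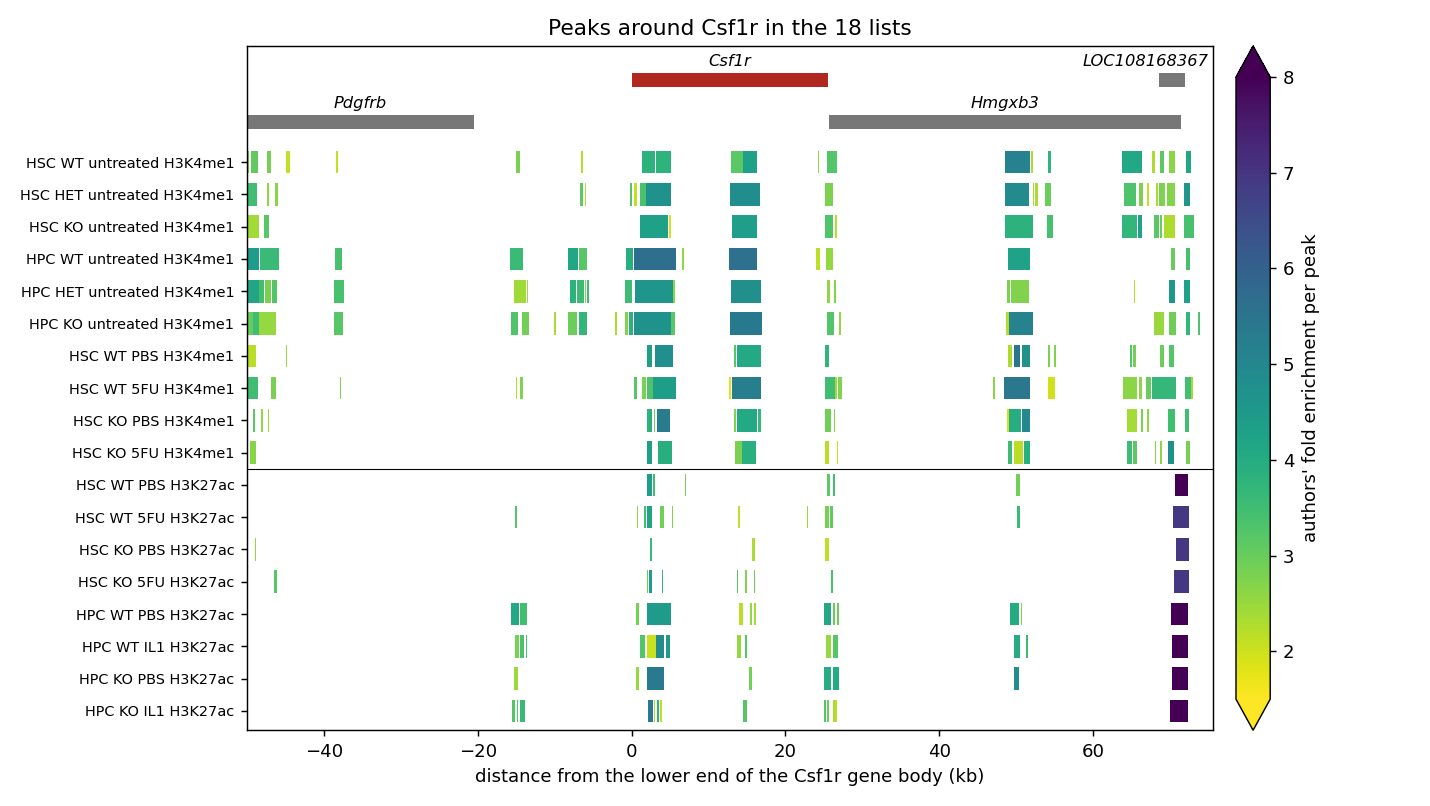
Peaks around Csf1r in each of the 18 lists (rows), by distance in kb from the lower end of the Csf1r gene body, H3K4me1 above the line and H3K27ac below it, coloured by the authors' fold enrichment. H3K27ac inside the gene is longer in the 4 HPC lists than in the 4 HSC lists near 2 to 5 kb.

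Genotype and treatment gave small differences in H3K4me1 around Csf1r. In untreated HSCs the wild-type and knockout lists had nearly equal lengths, and because the median gene was higher in knockout by 0.39 the relative ratio was -0.38. It was -0.20 for heterozygous over wild type. In the other knockout lists the relative ratio to wild type was above 0, with 0.14 in untreated HPCs and 0.23 and 0.19 in HSCs after PBS and 5FU. After PBS and 5FU, wild-type HSCs had 13052 and 25188 bases and knockout HSCs 13566 and 11998. The relative ratios of 5FU over PBS were -0.12 in wild type (background 9.81%) and -0.17 in knockout (8.37%). For H3K27ac they were 0.46 and 0.27. The wild-type value of 0.46 was above the upper quartile of all genes (0.12), and with 10 kb windows it was 0.62 and past 1.5-fold.

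**Figure D4:**
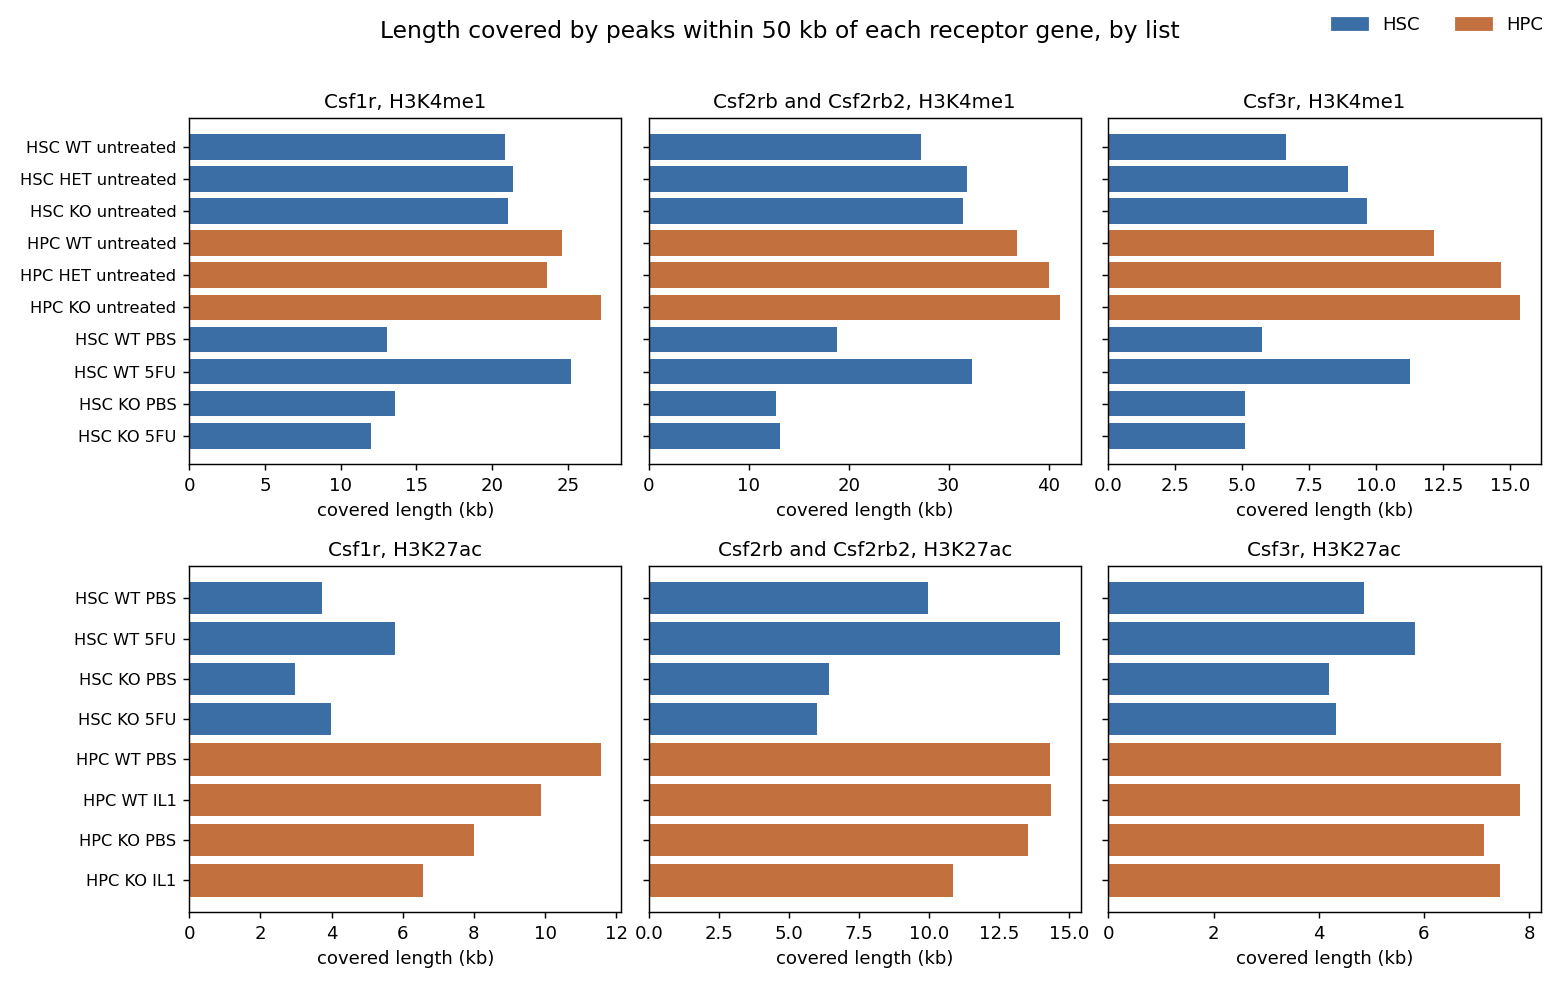
Length covered by peaks (kb, bars from 0) within 50 kb of each locus in each list, H3K4me1 in the upper and H3K27ac in the lower row, with HSC lists in blue and HPC lists in orange. For H3K27ac at Csf1r and Csf3r every HPC bar is longer than every HSC bar, a separation for which no share of all genes is given. At Csf2rb and Csf2rb2 the wild-type 5FU HSC bar, 14698 bases, is the longest.

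**Figure D5:**
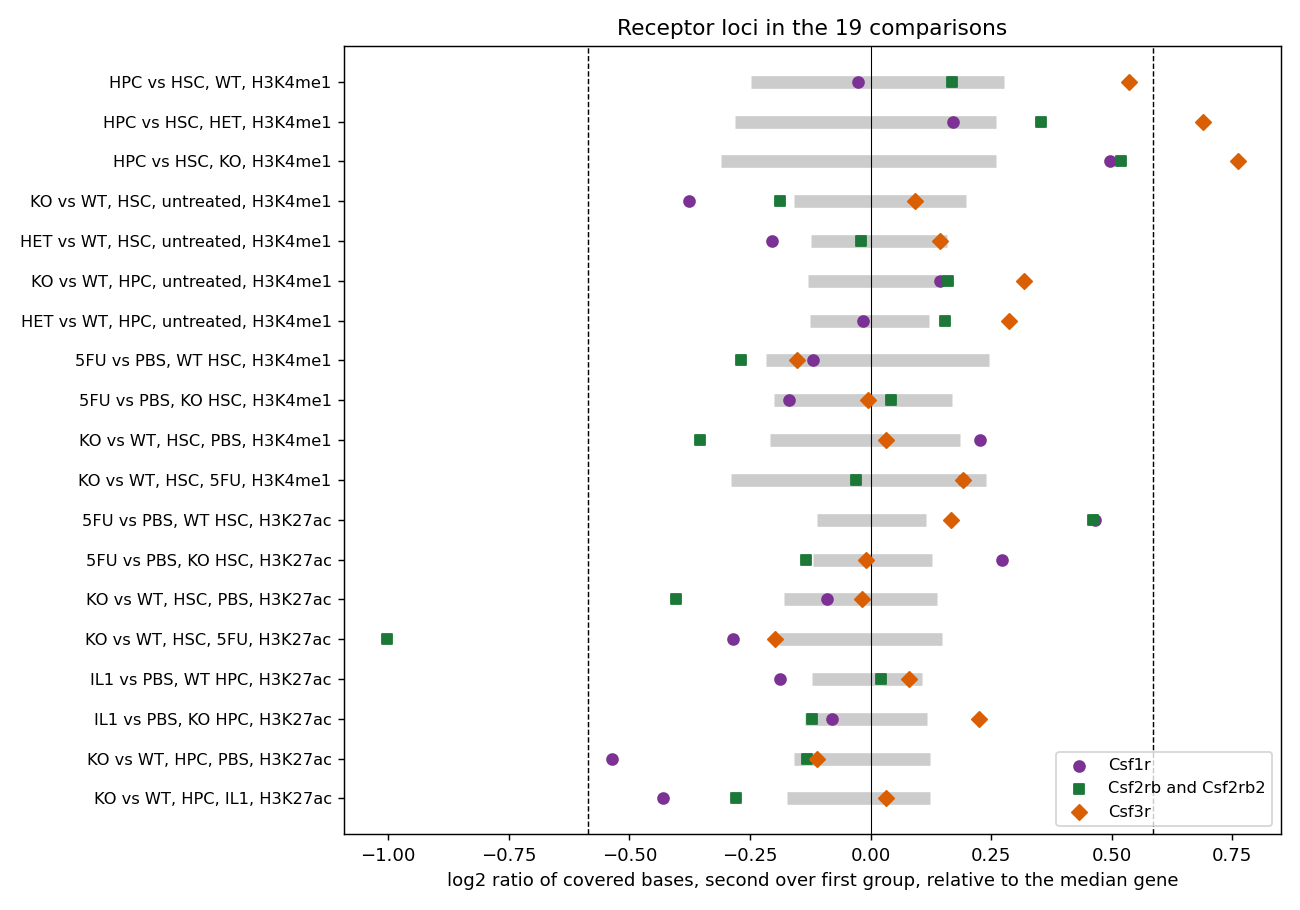
Relative log2 ratio of covered bases for the 3 loci (symbols) in the 19 comparisons (rows), second group over first, with grey bars for the lower to upper quartile of all measured genes and dashed lines at 1.5-fold. Csf3r is past 1.5-fold upwards for HPC over HSC in heterozygous and knockout mice, and the beta-chain locus downwards for knockout over wild type after 5FU.

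The 3 loci did not share 1 pattern. Of 57 values, 3 loci in 19 comparisons, 3 were past 1.5-fold, 2 of them for Csf3r, where 20% and 21.5% of all genes were past it, and 1 for the beta-chain locus, where 5.73% were. Over the 19 comparisons this share was between 2.05% and 21.5%. H3K27ac elements overlapped H3K4me1 elements in 16 of 19 cases at Csf1r, 36 of 41 at Csf2rb and Csf2rb2 and 11 of 12 at Csf3r, close to the 86.7% of H3K27ac elements genome-wide. The genes most like each locus over the lists of a mark were given by Pearson's r of the covered bases after the list median was removed, a description over few lists that share their sizes. Over the 10 H3K4me1 lists the 3 closest genes were Zswim4, Nanos3 and Fbxl18 for Csf1r (r = 0.963, 0.958 and 0.955), Arl4c, Pvr and Pde4b for the beta-chain locus (0.983, 0.973 and 0.963) and Rnf213, Lman2 and Urb2 for Csf3r (0.959, 0.956 and 0.950). Over the 8 H3K27ac lists they were Rnf145, Npc1 and Pik3ip1 for Csf1r (0.990, 0.989 and 0.988), Sorcs2, Ctdsp1 and Vil1 for the beta-chain locus (0.977, 0.975 and 0.975) and Wfdc18, Dtx1 and Ppp1r26 for Csf3r (0.992, 0.989 and 0.989). Ctdsp1 and Vil1 have the same r.

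The ligands, partners and effectors of the receptors were examined in the comparisons where a receptor locus was past 1.5-fold. For some lists the wild-type values of HPC over HSC, where no receptor locus was past it, are given as well. The 3 alpha chains that pair with the beta chains are Csf2ra, Il3ra and Il5ra, and 2 of them were measured in H3K4me1. Their median relative ratio of HPC over HSC was 0.26 in heterozygous and 0.37 in knockout lists, with none past 1.5-fold. Of the 6 ligands, 2 were higher in HPCs by 1.5-fold in heterozygous and in knockout lists. They were Csf2 (GM-CSF, 4859 and 10159 bases in heterozygous lists) and Il3 (3545 and 6899), neighbours in the genome whose windows may share peaks. Il34 was lower, with 18173 and 6200. The ligand medians were 0.03 in heterozygous and 0.02 in knockout lists. In wild-type lists the median was 0.01, with 0 ligands higher and 2 lower.

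Other blood cytokine receptors had a median of 0.37 in heterozygous and 0.33 in knockout mice for HPC over HSC. Of 12, 4 were higher and 0 lower by 1.5-fold in the first, and 3 higher and 1 lower in the second. In wild-type lists the median was 0.16, with 1 higher and 2 lower. Il7r, the receptor of lymphoid progenitors, had 1996 bases in HSCs and 7133 in HPCs of heterozygous mice (1.47), and Il1r1, the receptor for IL-1, had 25243 and 42002 (0.74). Of 15 myeloid transcription factors 4 were higher in heterozygous and 4 in knockout lists. In wild-type lists 3 were higher and 1 lower, with a median of 0.001. Both sets of 4 included Irf8, a factor of monocyte and dendritic cell development. Irf8 had 20681 and 48147 bases (1.21) in heterozygous and 22283 and 51614 (1.32) in knockout mice. Cebpa (0.79) and Klf4 (0.74) were higher in heterozygous lists, Egr2 (1.02) and Klf4 (0.77) in knockout lists, and Zeb2 (-0.76) was lower in knockout lists. Il6st, the gp130 chain, was higher in both (0.89 and 0.62). The 21 receptor signalling genes had medians of -0.04 in both, and in knockout lists Ptpn11 (0.59) was among the higher and Socs2 (-0.76) among the lower ones. Of all genes, 9.83%, 9.17% and 8.92% were higher by 1.5-fold in the wild-type, heterozygous and knockout comparisons. Lower by 1.5-fold were 9.16%, 10.8% and 12.6%. These shares by direction are the background of the counts.

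For H3K27ac in HSCs after 5FU, knockout over wild type, 4 of 15 myeloid transcription factors were lower by 1.5-fold and none higher, with a median of -0.18. They included Cebpe, which acts in maturing granulocytes (9238 and 3684 bases, -0.97), Gfi1, a repressor needed by neutrophils (3503 and 1412, -0.74), and Irf8 (12306 and 6407, -0.69). Of 21 signalling genes 2 were lower, the kinase Pim1 (-0.68) and the inhibitor Socs1 (-0.59), both known targets of STAT signalling. None of the 11 other receptors, 3 alpha chains or 4 ligands measured was past 1.5-fold, with medians of -0.26, 0.24 and -0.47. The background was the 5.73% of genes given for this comparison, with 5.07% lower and 0.655% higher in knockout. In the same comparison 2 of 6 measured erythroid and megakaryocyte markers were lower, among them Gp9 (21858 and 11447 bases), as were 2 of 5 stroma and endothelium markers, Col1a2 and Kdr, and none of 10 measured granulocyte and monocyte markers and none of 8 T, NK and B cell markers was past 1.5-fold, while 1 of 12 HSC markers was higher. Whether the cell makeup of the sorted populations differed, and its part in the values at the receptor loci, was not tested.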

How the data were processed

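Sorted HSCs and HPCs were profiled for H3K4me1 or H3K27ac by ChIPmentation, per the labels' protocols. The 69 samples comprise 63 in 18 groups with a peak list and 6 input chromatin samples, which were not analysed here. The tools named in the submitters' processing notes are Novoalign and MACS2, with the build mm10 (GRCm38). Versions, filters and how libraries were pooled were not given in those sources. The authors deposited 1 list per group of peak intervals, each with a fold enrichment (linear ratio), a -log10 p and a -log10 q. These are the authors' own peak values, used here for description, ranking and filtering inside single lists. Read depth is unknown.

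Peaks were merged with Python 3.11.15, numpy 2.4.6 and pandas 2.3.3, and covered bases were summed from 50 kb below to 50 kb above each RefSeq gene body (GRCm38.p6). Ratios used 1000 added bases and the median over genes covered for 1000 bases or more in 1 of the lists. Elements were merged per mark over 10 H3K4me1 or 8 H3K27ac lists and counted for a list with at least 1 bp covered. The gene table has no strand, so ends are called lower and upper. Peak starts and ends are 1-based. With 1 list per group there is no test and no paired analysis. Counting of covered bases was checked against a base-by-base count in 1 of the lists. Ratios were checked by halving the widths of its peaks in some windows.

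The receptor genes, the 10 gene lists with 109 genes, all of which matched, the comparisons and the alternatives were chosen with earlier results of these data known. Named genes are the receptors, all genes in their windows, up to 3 members per gene list and direction with the largest ratio past 1.5-fold where a receptor locus is past it, and the genes most like each locus (3 per locus and mark). Some genes that this rule names are not reported here. Promoter sequences come from RefSeq (GRCm38.p6), where 2 of the 4 receptors matched. The planned comparison of the beta-chain proteins was not made here. The alternatives were 10 kb windows, a -log10 q of at least 2, lists of equal peak number or equal covered bases, 5000 added bases and genes with any covered base, and for elements an overlap of 50% of the shorter interval.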

Additional observations from a re-analysis of the deposited data

How the results depend on the processing

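Of 342 relative ratios recomputed over 6 alternatives, 325 stayed on their side of 1.5-fold and near their value, and 17 crossed 1.5-fold or moved by at least that much. The number of loci past 1.5-fold, of 3, changed in these cases. With 10 kb windows it was 0 for HPC over HSC in heterozygous mice (from 1), 1 for H3K4me1 in knockout over wild-type HSCs after PBS and 1 after 5FU (from 0 each), 2 for H3K27ac in 5FU over PBS of wild-type HSCs and 1 of knockout HSCs (from 0 each), and 1 for knockout over wild-type HPCs after IL-1 (from 0). In knockout HPC over HSC the count stayed at 1, but Csf1r (0.81) took the place of Csf3r (0.41). With 5000 added bases, Csf3r was under 1.5-fold in HPC over HSC of heterozygous and knockout mice (0.52 and 0.58, 0 loci each). With a -log10 q of at least 2, 1 locus passed for 5FU over PBS in wild-type HSCs in each mark, Csf3r for H3K4me1 (-0.70) and the beta-chain locus for H3K27ac (0.62). With equal covered bases, 0 passed for knockout over wild-type HSCs after 5FU in H3K27ac (from 1), and 1 passed for knockout over wild-type HPCs after IL-1, Csf1r at 0.68 from -0.43. Equal numbers of peaks and genes with any covered base changed no count. The cause of these changes was not tested.

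Element counts by list changed by over 1.5 times in 20 of 54 cases with a -log10 q of at least 2, all of them downwards. They changed in 2 of 54 cases when a list had to cover 25% of an element, an alternative chosen after seeing the data. An overlap of 50% of the shorter interval cannot change them, since peaks lie inside elements. Leaving out libraries was not possible with pooled lists. No paired analysis was possible because each group has 1 pooled list. Depth is unknown, so a missing peak does not show that a mark is absent.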
